A study of Homo sapiens with 8 samples.

Results

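The genes described here are the transcriptional co-activators YAP1 and WWTR1 (the gene of the protein TAZ), the 4 DNA-binding factors TEAD1 to TEAD4, and 4 genes widely used as readouts of YAP activity, CCN1, CCN2, ANKRD1 and AMOTL2. These 10 genes of the 57820 in the count table were chosen by name for their role. No cutoff on their values was used, but earlier results of these data were known at the time. All 10 were found. They were compared between the side population (SP) and the non-side population (NSP) of J82, a human bladder cancer cell line, with 4 libraries per group numbered 1 to 4. SP cells are those that pump out a Hoechst DNA dye and so stain weakly in flow cytometry. NSP cells keep the dye, and a second dye marked dead cells in the sort. Both groups came from J82 cells in serum-containing medium, and the labels name no drug, knockout or transgene for either. The 2 groups therefore differ by the sorting gate in a single cell line. The labels do not say whether the 4 replicates came from separate cultures, so that p-values concern these samples only. The study treats the SP cells as its drug-resistant subpopulation, and the comparison asks which genes differ from the drug-sensitive NSP cells.

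In the Hippo pathway, the kinases STK3 and STK4 activate the kinases LATS1 and LATS2, which phosphorylate YAP and TAZ. This holds the co-activators in the cytoplasm or marks them for degradation. When the cascade is off, YAP and TAZ enter the nucleus, bind a TEAD factor at its DNA element and switch on genes for matrix signalling, adhesion and growth. Since the control acts mainly on the protein and its location, the RNA of YAP1 and WWTR1 does not report their activity, and target gene RNA is commonly read in its place. In bladder and other carcinomas the pathway is known for its links to growth and drug response.

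The core of the TEAD element is GGAATG. Promoter windows from RefSeq (build GRCh38.p14, 250 bases before to 50 after a transcription start) were at hand for 7 of the 10 genes, all but TEAD1, TEAD4 and CCN1. Both strands of each window were searched for GGAATG, which reads CATTCC when it lies on the other strand. The upstream 250 bases are shown 5′ to 3′ for the target genes that had a match, because their RNA is what the comparison turns on, and for NUAK2 and TGFB2, the further target genes called higher and lower in SP cells when libraries are not paired by replicate number. Capitals mark the element. The stretches are chr6:131951373-131951622 for CCN2, chr10:90921088-90921337 for ANKRD1, chr3:134374448-134374697 for AMOTL2 and chr1:205321746-205321995 for NUAK2, on the minus strand, and chr1:218345086-218345335 for TGFB2, on the plus strand.
CCN2: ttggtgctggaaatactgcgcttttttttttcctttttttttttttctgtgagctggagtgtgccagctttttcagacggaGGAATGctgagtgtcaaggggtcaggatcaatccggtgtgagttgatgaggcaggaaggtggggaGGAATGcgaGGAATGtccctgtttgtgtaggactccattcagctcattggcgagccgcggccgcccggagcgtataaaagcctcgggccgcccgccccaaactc
ANKRD1: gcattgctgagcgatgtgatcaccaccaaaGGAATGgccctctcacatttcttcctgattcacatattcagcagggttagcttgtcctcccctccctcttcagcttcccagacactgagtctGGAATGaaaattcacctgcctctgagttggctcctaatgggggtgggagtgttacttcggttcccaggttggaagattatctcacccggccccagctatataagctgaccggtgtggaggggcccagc
AMOTL2: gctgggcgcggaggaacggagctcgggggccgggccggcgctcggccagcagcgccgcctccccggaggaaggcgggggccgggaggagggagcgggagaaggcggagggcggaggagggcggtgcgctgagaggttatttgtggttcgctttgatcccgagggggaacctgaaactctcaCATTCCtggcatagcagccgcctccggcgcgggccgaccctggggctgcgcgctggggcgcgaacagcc
NUAK2: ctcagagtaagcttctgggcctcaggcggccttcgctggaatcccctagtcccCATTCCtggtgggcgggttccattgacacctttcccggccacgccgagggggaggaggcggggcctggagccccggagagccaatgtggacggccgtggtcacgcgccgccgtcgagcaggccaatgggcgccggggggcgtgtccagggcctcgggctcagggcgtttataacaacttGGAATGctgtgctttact
TGFB2: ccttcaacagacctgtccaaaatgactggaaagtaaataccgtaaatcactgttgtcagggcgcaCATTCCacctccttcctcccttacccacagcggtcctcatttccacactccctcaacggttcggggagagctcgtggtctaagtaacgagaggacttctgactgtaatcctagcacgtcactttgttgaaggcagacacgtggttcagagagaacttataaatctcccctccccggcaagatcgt

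Of all 35116 windows of this length, 14.0% held at least 1 copy of the element, 1.37% held at least 2 and 0.128% (45 windows) held at least 3. The CCN2 window held 3 copies, beginning 169, 104 and 95 bases before the start and all in the forward reading. The ANKRD1 window held 2 copies, at 220 and 128 bases before the start. AMOTL2 has 2 windows in the table. The one shown held 1 copy, at 69 bases and on the other strand, and the other held none. Among the factors, YAP1 had 1 copy at 162 bases before its start, and the windows of WWTR1, TEAD2 and TEAD3 had none. NUAK2 had 2 copies, at 197 and 18 bases, and TGFB2 had 1, at 185 bases and on the other strand. A match describes the letters in the window and does not show that a factor binds there.

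The libraries held 1431823 to 1697218 counts in SP cells and 1489033 to 2073526 in NSP cells. The study's methods state far more raw reads per sample than these totals, and the difference was not examined. Levels are given as CPM, the counts scaled to a common total of 1000000 after TMM normalization, and differences as log2 fold changes of SP over NSP with their standard error (SE). Of the 57820 genes, 9309 had enough counts to be tested with edgeR. A gene was called where its change exceeded 1.3-fold in either direction with an adjusted p-value below 0.05. Without a term for the replicate number, 1.63% of the tested genes were called higher in SP cells and 2.03% lower. With the replicate number as a block, which compares each SP library with the NSP library of the same number, the shares were 5.89% and 7.00%. Of 13 urothelial markers, 6 had fewer than 10 counts in total, among them KRT20, TP63 and UPK3A at 0 in all 8 libraries. PPARG (57 counts in total), GATA3 (34), FOXA1 (22), UPK1B (13) and UPK3B (13) had more but were not tested. UPK2 was measured in both groups (0.22, SE 0.35, adjusted p = 0.82) and CD44 was called lower in SP cells (-1.32, SE 0.22, adjusted p = 0.00376). Of 7 immune and endothelial markers with a match, 6 had fewer than 10 counts in total, among them PTPRC and CD3E at 0. The other one, CD14, stood at 38.4 to 85.4 CPM in SP and 12.1 to 53.2 in NSP cells (0.96, SE 0.33, adjusted p = 0.135), and was called higher with the block.

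Without the block none of the 9 tested genes of the set was called higher or lower in SP cells, and the CPM values of the 2 groups overlapped for all 10, whereas they did not for 9.75% of all tested genes. The lowest adjusted p-value was 0.312, for ANKRD1, and 0 of the 9 had an unadjusted p-value under 0.05, against 16.4% of all tested genes. DESeq2 and limma voom without the block also called 0 of them. The median log2 fold change was 0.07 over the 9 genes and 0.015 over all tested genes. Once same-numbered libraries were compared, CCN1 and AMOTL2 were called higher and ANKRD1 lower, that is 3 of 9 beside 12.9% of all tested genes. In bulk RNA, fewer cells expressing a gene and less RNA per cell cannot be told apart.

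**Figure D1:**
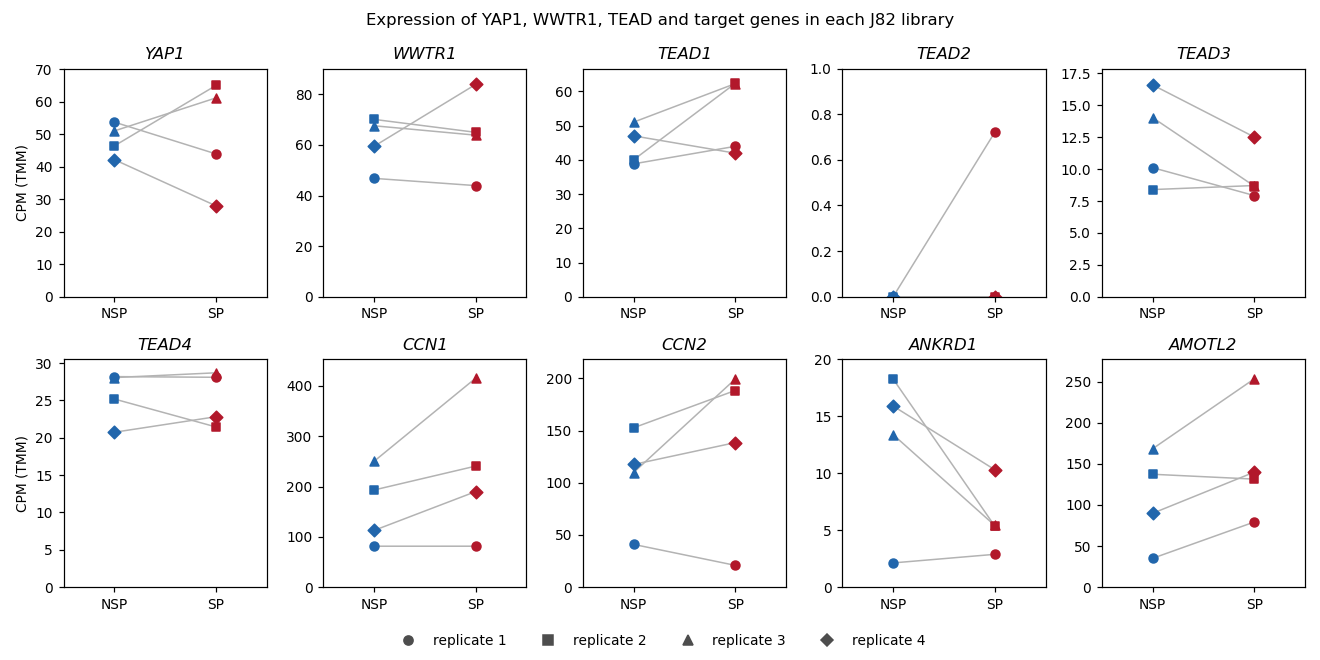
CPM of each of the 10 genes (vertical axes from 0, TMM-scaled) in the 4 NSP (blue) and 4 SP (red) libraries, with grey lines joining libraries of the same number. The NSP and SP points overlap in every panel, and replicate 1 is lowest in both groups for CCN1, CCN2, ANKRD1 and AMOTL2.

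YAP1, the co-activator held in check by the LATS kinases, was measured at 44.0, 65.0, 61.2 and 28.0 CPM in SP replicates 1 to 4 and at 53.7, 46.4, 51.0 and 42.2 in NSP replicates 1 to 4. The SP libraries spread on both sides of the NSP libraries. The means were 49.5 ± 17.0 (SD, n = 4) and 48.3 ± 5.10, with a log2 fold change of 0.042 (SE 0.23, edgeR adjusted p = 0.953). SP was higher in 2 of the 4 replicate numbers and lower in 2, and the sign of the fold change depended on which library was left out (-0.11 without SP replicate 2 and 0.23 without SP replicate 4). YAP1 lies on the plus strand of chromosome 11 (GRCh37, chr11:101981178-102104155).

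A lncRNA gene on the other strand of YAP1, ENSG00000254422 (chr11:102100582-102101653), has all of its 628 exonic bases inside YAP1 exons. It was counted at 179.4, 247.3, 202.0 and 167.1 CPM in SP and at 231.4, 241.5, 300.4 and 234.4 in NSP cells. These values were far above those of YAP1 in every library. Per kb of exon it had 46.0 times the counts of YAP1 over all libraries, from 33.2 times in SP replicate 3 to 60.0 in SP replicate 4. Its log2 fold change was -0.34 (SE 0.16, adjusted p = 0.305). Over all libraries the lncRNA had 2952 counts and YAP1 had 645, although every exonic base of the lncRNA lies in YAP1 exons. The strand setting of the counting is not given in the sources used here. Whether reads were assigned by strand, and whether the strand counted for each gene is that of its own RNA, was not tested. The part of lncRNA reads in the YAP1 values was not tested either.

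WWTR1 encodes TAZ, the second co-activator. It was measured at 44.0, 65.0, 63.9 and 83.9 CPM in SP cells and at 46.8, 70.1, 67.6 and 59.5 in NSP cells. Only SP replicate 4 stood above its NSP counterpart (log2 ratio of CPM + 1 of 0.49), while the other 3 pairs differed by -0.08 to -0.11. The means were 64.2 ± 16.3 and 61.0 ± 10.5 (SD, n = 4), with a log2 fold change of 0.073 (SE 0.20, adjusted p = 0.906). Without SP replicate 4 the fold change was -0.08. WWTR1 lies at chr3:149235022-149454501 (minus strand).

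WWTR1-AS1 (chr3:149374786-149379151, plus strand) shares 756 of its 2624 exonic bases with WWTR1 exons. Its values were 152.8, 140.1, 144.6 and 165.6 CPM in SP and 175.5, 189.1, 204.7 and 197.1 in NSP cells. Each SP library was below each NSP library, as was the case for 4.97% of all tested genes. On log2(CPM + 1) the exact permutation test, two-sided, gave p = 0.0286, the smallest that 4 against 4 libraries allow, but the gene was not called (-0.35, SE 0.14, adjusted p = 0.212), and not with the block either (adjusted p = 0.0739). Per kb of exon it had 8.75 times the counts of WWTR1. For this pair too, how reads were assigned to the 2 strands is not known.

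**Figure D2:**
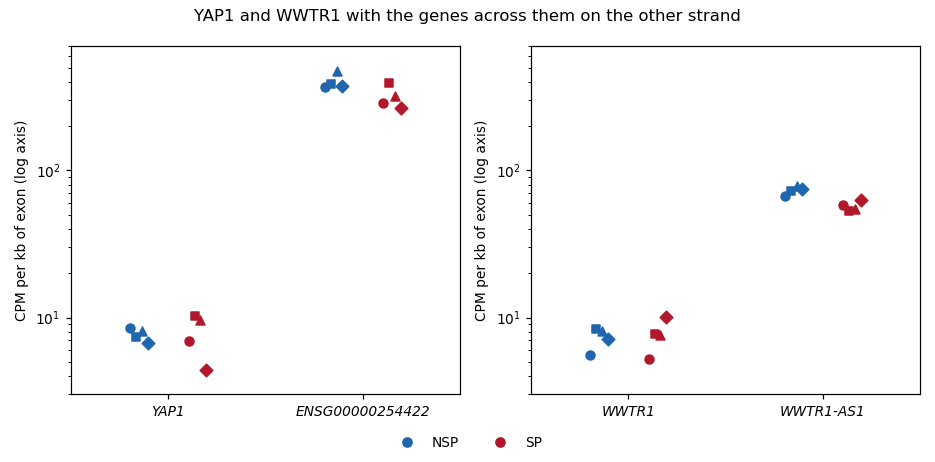
CPM per kb of exon on a log axis for YAP1 and the lncRNA across it (left) and for WWTR1 and WWTR1-AS1 (right), in NSP (blue) and SP (red) libraries, with circle, square, triangle and diamond for replicates 1 to 4. The lncRNA lies 33.2 to 60.0 times above YAP1 within each library, and WWTR1-AS1 is lower in all SP than in all NSP libraries.

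TEAD1, the first of the factors that carry YAP and TAZ to DNA, was measured at 44.0, 62.3, 62.3 and 42.0 CPM in SP and 38.8, 40.0, 51.0 and 47.0 in NSP cells. SP replicates 2 and 3 were above all NSP libraries and the other SP libraries were within their range. The log2 fold change was 0.26 (SE 0.19, adjusted p = 0.546), and it stayed between 0.17 and 0.35 when any 1 library was left out. TEAD1 lies at chr11:12695968-12966284 (plus strand).

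TEAD2 was all but uncounted in these libraries. Whether its RNA was absent or was missed by the counting was not tested. It had 1 count, in SP replicate 1, and 0 in the other 7 libraries, and was not tested. Over the 4 NSP libraries a count of 0 allows up to 0.417 CPM (3 counts of 7188570), an interval that covers counting error only. CD37, which shares 319 exonic bases with TEAD2 on the other strand of chr19:49843852-49865714, had 21 counts.

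TEAD3 was low, at 7.93, 8.71, 8.66 and 12.5 CPM in SP and 10.1, 8.40, 14.0 and 16.6 in NSP cells. The SP library was the lower one in 3 of the 4 pairs and the groups overlapped. On 11 to 24 counts per library, the log2 fold change of -0.36 (SE 0.30, adjusted p = 0.613) is about as large as its error. TEAD3 lies at chr6:35441374-35464856 (minus strand).

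TEAD4, without the block the tested gene of the set with the fold change nearest to 0, was measured at 28.1, 21.5, 28.7 and 22.8 CPM in SP and 28.2, 25.2, 28.1 and 20.7 in NSP cells. The ranges covered each other almost fully. Its log2 fold change was -0.016 (SE 0.21, adjusted p = 0.983), and -0.10 to 0.05 with any 1 library left out. TEAD4 lies at chr12:3068496-3149842 (plus strand).

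CCN1 (CYR61), a secreted matrix protein that signals through integrins, was the most counted of the targets. It was measured at 81.4, 240.6, 415.3 and 189.9 CPM in SP and at 81.4, 193.1, 250 and 112.7 in NSP cells. Replicate 3 was highest and replicate 1 lowest in both groups. SP was above NSP in replicates 2, 3 and 4, and level with it in replicate 1. Without the block the log2 fold change was 0.55 (SE 0.38, edgeR adjusted p = 0.521), and the exact permutation test gave p = 0.571. With it the fold change was 0.47 (SE 0.14, adjusted p = 0.0106), and the gene was called higher. The log2 ratios of replicates 1 to 4 were 0.00059, 0.32, 0.73 and 0.75. The blocked SE, which edgeR draws partly from other genes, does not measure their spread alone.

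The blocked call for CCN1 held in 1 of the 4 fits that left out a replicate number, the one without replicate 1 (0.60, adjusted p = 0.00616). Without replicate 2 the adjusted p-value was 0.0526, without replicate 3 the fold change of 0.37 fell short of the threshold, and without replicate 4 the adjusted p-value was 0.182. DESeq2 with the block did not call it (adjusted p = 0.0846), whereas limma voom with the block did (adjusted p = 0.00836). Without the block, the fold change went from 0.10 without SP replicate 3 to 0.85 without NSP replicate 3. CCN1 lies at chr1:86046444-86050272 (plus strand).

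CCN2 (CTGF), the connective tissue growth factor, whose promoter has the 3 elements shown above, was measured at 20.9, 188.3, 199.2 and 138.4 CPM in SP and 41.0, 152.6, 109.7 and 117.5 in NSP cells. Replicate 1 was again far below the others in both groups. There SP was the lower of the pair (log2 ratio -0.94), while SP was higher in replicates 2, 3 and 4 (0.30, 0.86 and 0.23). The log2 fold change was 0.38 (SE 0.45, adjusted p = 0.739) without the block and 0.25 (adjusted p = 0.317) with it. It was 0.74 without SP replicate 1, 0.11 without NSP replicate 1, and -0.12 with limma voom and sample quality weights. CCN2 lies at chr6:132269316-132272512 (minus strand). A lncRNA across it, LINC01013, had 3 counts in all against 1594 for CCN2.

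ANKRD1, a nuclear ankyrin repeat protein induced by stretch in muscle, moved the other way. It was measured at 2.88, 5.36, 5.41 and 10.3 CPM in SP and 2.13, 18.3, 13.4 and 15.9 in NSP cells, on 4 to 14 and 4 to 37 counts per library. The 3 NSP libraries other than replicate 1 were above all SP libraries, and NSP replicate 1 was the lowest value of all 8. The log2 fold change was -1.05 (SE 0.50, adjusted p = 0.312) without the block. With the block it was -1.04 (SE 0.34, adjusted p = 0.024), and ANKRD1 was called lower.

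That call held without replicate 1 (-1.20, adjusted p = 0.013). It was lost without replicate 2 (-0.74, adjusted p = 0.314) and without replicate 3 (-0.95, adjusted p = 0.0952), and without replicate 4 the gene had too few counts to be tested. DESeq2 with the block gave it no adjusted p-value, and limma voom with the block called it (adjusted p = 0.0247). ANKRD1 lies at chr10:92671853-92680844 (minus strand).

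AMOTL2, an angiomotin family protein that is both a target of YAP and a binding partner that holds it back, was measured at 79.3, 131.4, 253.4 and 139.9 CPM in SP and 35.1, 137.3, 168.4 and 89.9 in NSP cells. As for CCN1, replicate 3 was highest and replicate 1 lowest in both groups. SP was higher in replicates 1, 3 and 4 (log2 ratios 1.15, 0.59 and 0.63) and differed by -0.063 in replicate 2. The log2 fold change was 0.50 (SE 0.37, adjusted p = 0.557) without the block, ranging from 0.12 without SP replicate 3 to 0.79 without NSP replicate 3.

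With the block AMOTL2 was called higher (0.54, SE 0.15, adjusted p = 0.00525). It was also called without replicate 2 (0.76) and without replicate 3 (0.50), but not without replicate 1 (0.39, adjusted p = 0.151) or without replicate 4 (adjusted p = 0.0639). DESeq2 with the block gave an adjusted p-value of 0.0744 and limma voom with the block 0.00506. AMOTL2 lies at chr3:134074189-134094321 (minus strand).

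**Figure D3:**
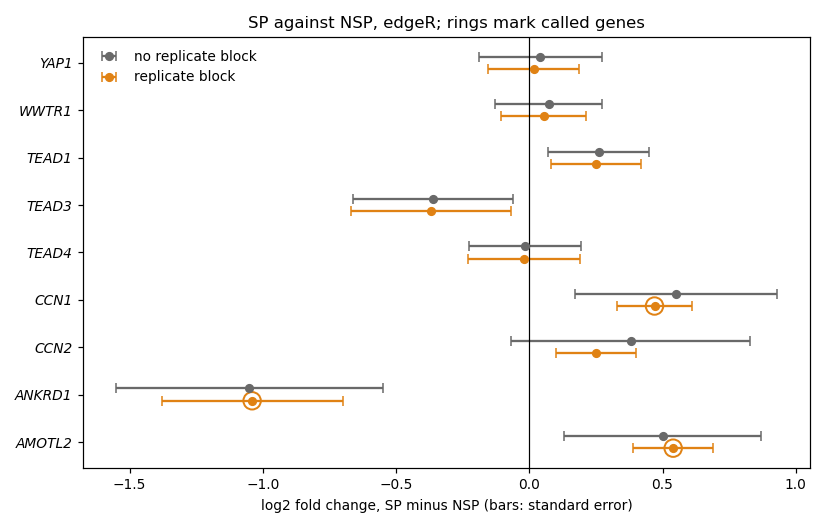
Log2 fold change of SP over NSP (horizontal axis) for the 9 tested genes, with bars of 1 SE, without (grey) and with (orange) the replicate block; rings mark called genes. The block narrows the bars of CCN1, CCN2 and AMOTL2 most, and the rings fall on CCN1, ANKRD1 and AMOTL2 with the block only.

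The targets and the factors differed in how much their levels varied among libraries of the same group. The highest CPM was 1.27 to 2.32 times the lowest for the co-activators and tested TEAD factors, and 3.07 to 9.54 times for the 4 targets. In each of the 4 targets replicate 1 was the lowest library of both groups. The same held for 1 of the 5 tested factors, WWTR1, for 2 of 17 other tested target genes (PTPN14 and NUAK2) and for 10.3% of all tested genes. This count was looked for after the values were seen, and the 4 targets were chosen together, so that no test goes with it.

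**Figure D4:**
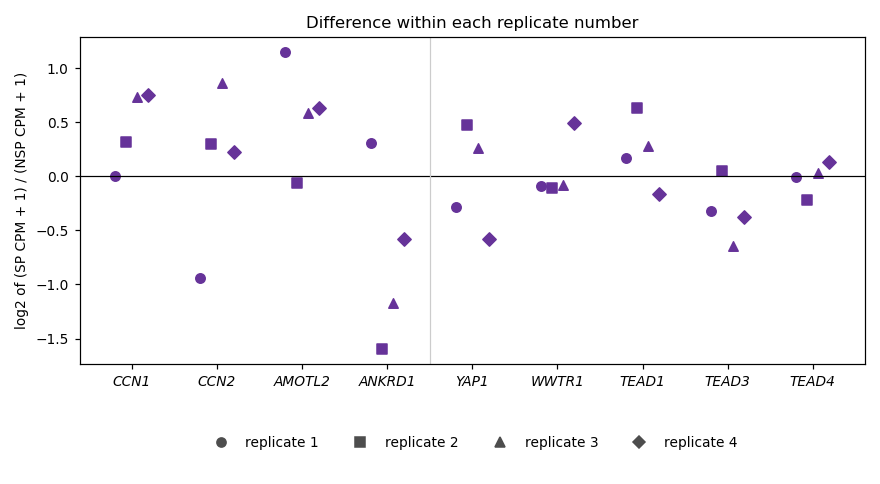
Log2 ratio of SP over NSP, from CPM + 1, within each replicate number (circle, square, triangle and diamond for 1 to 4), for the 4 target genes on the left and the 5 tested factors on the right. The ratios run from -1.60 to 1.15 in the targets and from -0.64 to 0.63 in the factors, and CCN1 is the only gene with no ratio under 0.

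Across the 8 libraries, the genes most like CCN1 in log2(CPM + 1) were ACBD6 (Pearson r 0.978), CBX5 (0.969) and SAMD10 (0.968). AMOTL2 was at rank 29 of all tested genes (0.913) and CCN2 at rank 109 (0.838), followed by TEAD1 at rank 448 (0.711) and WWTR1 at rank 491 (0.699). ANKRD1 (0.366), YAP1 (0.299), TEAD4 (0.015) and TEAD3 (-0.080) were further away. Among the factors WWTR1 was the most counted, and its closest genes were CCDC175 (0.974), ENSG00000228021 (0.942) and PROSER2 (0.934). These r values describe 8 points that share their libraries and depth.

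Per kb of exon, which allows levels of different genes to be set side by side, CCN1 and CCN2 were the most abundant of the 10 in SP cells (62.7 ± 37.6 and 58.5 ± 34.9 CPM per kb, SD, n = 4). AMOTL2 followed at 23.3 ± 11.3 and TEAD4 at 11.1 ± 1.61, the highest of the factors. YAP1 (7.85 ± 2.70) and WWTR1 (7.68 ± 1.95) were next, and their order turned when the longest transcript was used as the length. TEAD1 (4.92), ANKRD1 (3.35) and TEAD3 (3.10) were lower, and TEAD2 was last. The SP libraries of each gene overlapped those of its neighbour in this order, except for TEAD3 and TEAD2. The strand setting of the counting is not known for any gene. Its part in the levels of either group, with or without an opposite-strand exon, was not tested.

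NSP cells had nearly the same order. CCN2 (45.0 ± 20.0) and CCN1 (43.1 ± 20.7) traded places within their spread, and kept the SP order when the longest transcript was used as the length. ANKRD1 (6.94 ± 3.99) stood above TEAD1 (4.13) and TEAD3 (4.03). The ANKRD1 libraries ranged from 1.19 to 10.2 CPM per kb, so that this change of place is within the spread. Neighbours in the order overlapped here too, except for TEAD4 (9.12 to 12.4) with YAP1 (6.68 to 8.51) and TEAD3 with TEAD2.

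The rest of the pathway was described by lists of known components and targets. Over these lists 59 genes were counted once each, 41 were tested, and 1 was called higher and 1 lower (4.88%, beside 3.66% of all tested genes). Both calls were among 17 tested of 18 other YAP target genes. With the block, 4 genes were called higher and 6 lower (24.4% beside 12.9%), counting each gene once.

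NUAK2, a kinase of the AMPK family, was the gene called higher. It was measured at 10.1, 18.1, 33.6 and 14.0 CPM in SP and 4.26, 6.91, 4.46 and 6.22 in NSP cells. Every SP library was above every NSP library, a separation shown by 4.78% of all tested genes in this direction. Its log2 fold change was 1.81 (SE 0.38, edgeR adjusted p = 0.0142), and it was called in each of the 8 fits that left out 1 library (1.35 to 2.01).

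TGFB2, a ligand of the TGF-beta receptors, was called lower. It was measured at 15.9, 17.4, 10.8 and 11.8 CPM in SP and 22.9, 28.2, 28.1 and 31.8 in NSP cells, again with no overlap between the groups. The log2 fold change was -0.99 (SE 0.23, adjusted p = 0.0274). It kept its direction in all 8 fits that left out 1 library but passed the threshold in 3 of them, with adjusted p-values up to 0.0809. A gene on the other strand has an exon across TGFB2, as for 54.2% of all tested genes, AXL, MAP4K5 and VGLL4 among them. How reads were assigned to the 2 strands there is not known.

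The remaining 15 tested targets were not called, and the median of the 17 was -0.03. The genes called with the block alone went both ways and were named for that reason, after their values were seen. IGFBP3, which binds insulin-like growth factors, was higher in SP in all 4 pairs (log2 ratios 1.37, 1.33, 0.92 and 0.22). Its log2 fold change was 1.01 (SE 0.31, adjusted p = 0.0926) without the block and 0.97 (adjusted p = 5.81e-09) with it. It was called in each of the 4 blocked fits that left out a replicate number. AXL, a receptor kinase, was lower with the block (-0.54, adjusted p = 0.00215), although SP was the higher one in replicate 3 (log2 ratio 0.11), and was called in 2 of those 4 fits. FOXF2 and GADD45A were also called lower with the block, and in 2 of 3 and 2 of 4 such fits. DESeq2 with the block did not call GADD45A (adjusted p = 0.263) and gave FOXF2 no adjusted p-value. LATS2, itself a target as well as a kinase of the cascade, was higher with the block (0.62, adjusted p = 0.0172) and in 3 of the 4 fits, but not with DESeq2 and the block (adjusted p = 0.239).

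**Figure D5:**
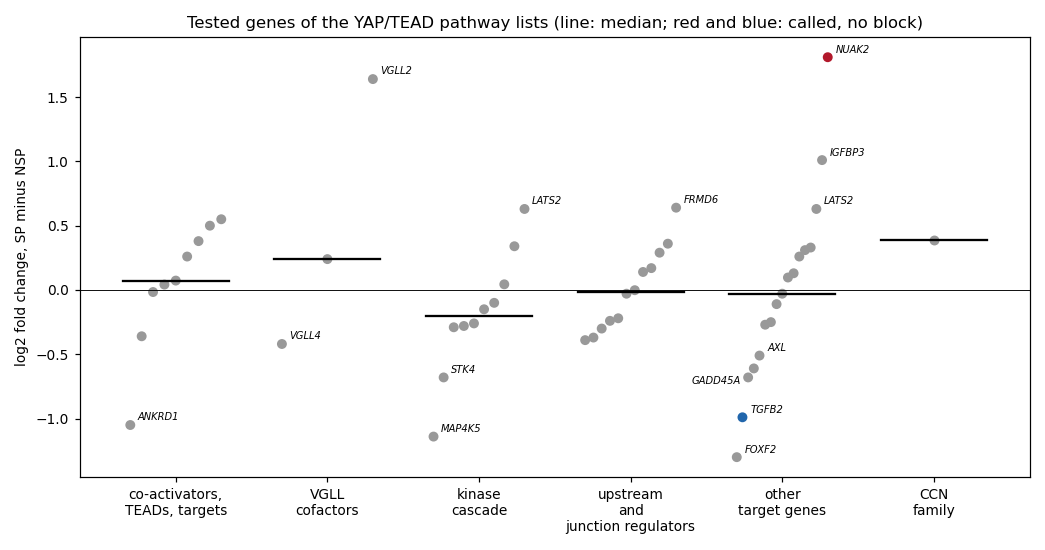
Log2 fold change of SP over NSP without the block (vertical axis) for each tested gene, by list, with a line at the median of each list; red and blue mark genes called higher and lower, and LATS2 and PTPN14 stand in 2 lists. NUAK2 (1.81) and TGFB2 (-0.99) are the called genes, and the list medians lie between -0.20 and 0.39.

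The kinase cascade, which inactivates YAP and TAZ, had 10 of 15 genes tested and none called, with 7 of the 10 below 0. Their median was -0.20, beside 0.015 over all tested genes. MAP4K5 was at -1.14 (SE 0.33, adjusted p = 0.0696) and STK4, also named MST1, at -0.68 (SE 0.24, adjusted p = 0.151). STK4 stood at 15.1, 18.8, 15.2 and 9.57 CPM in SP and 20.8, 24.7, 22.3 and 27.0 in NSP cells. The groups did not overlap, as for 4.97% of all tested genes in this direction. With the block both were called lower (adjusted p = 0.0324 and 0.0411) and LATS2 higher, beside 7.00% and 5.89% of all tested genes. When a replicate number was left out, the blocked call held in 1 of 4 fits for MAP4K5 (adjusted p up to 0.238) and in 0 of 4 for STK4 (0.0528 to 0.316), and DESeq2 with the block did not call STK4 (adjusted p = 0.275). LATS1 (37 counts in all) and STK3 (72) were too low to be tested.

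Of the upstream and junction regulators, 12 of 20 were tested and 0 were called with or without the block, with a median of -0.02. The smallest p-values belonged to FRMD6, a FERM domain protein upstream of the kinases (0.64, SE 0.32, adjusted p = 0.33), and WWC1, known as KIBRA (0.36, SE 0.20, adjusted p = 0.395). NF2, which encodes the scaffold merlin, had 2 counts in all.

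The VGLL genes encode cofactors that compete with YAP for TEAD. VGLL1 was at 0 in all libraries and the 3 others were tested, with none called. VGLL2 was at 5.76, 16.8, 23.8 and 17.7 CPM in SP and 1.06, 3.95, 8.29 and 8.30 in NSP cells. SP was higher in all 4 pairs although the groups overlapped through SP replicate 1. Its log2 fold change was 1.64 (SE 0.47, adjusted p = 0.0704) without the block and 1.61 (adjusted p = 5.69e-05) with it, and it was called in all 4 blocked fits without a replicate number. VGLL4, a repressor of TEAD activity, was at -0.42 (SE 0.19, adjusted p = 0.273).

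Of the other CCN genes only CCN3 was tested (0.39, SE 0.36, adjusted p = 0.653), and CCN4 was at 0. Immediate early genes, which share inducers with CCN1 and CCN2, had 12 of 14 tested, 11 of them above 0. Their median was 0.36, beside 0.015 over all tested genes. ATF3, a stress-induced bZIP factor, was the one called (1.45, SE 0.37, adjusted p = 0.0423), with 7.04 to 19.9 CPM in SP and 3.72 to 7.65 in NSP cells. It was called in 2 of the 8 fits that left out 1 library (adjusted p up to 0.135), and not by DESeq2 (adjusted p = 0.0554). KLF6, a zinc finger factor, was next (0.74, SE 0.21, adjusted p = 0.0589). With the block, 5 were called higher and 0 lower, beside 5.89% and 7.00% of all tested genes. Of the 4 fits without a replicate number, the call held in 4 for IER3, 3 each for ATF3, MYC and KLF6, and 2 for DUSP1. DESeq2 with the block gave adjusted p-values of 0.00664 for IER3, 0.0971 for KLF6, 0.113 for MYC and 0.163 for DUSP1, and none for ATF3. The part of these genes in the CCN1 and AMOTL2 values was not tested.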

How the data were processed

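RNA of 4 SP and 4 NSP samples of J82 cells was sequenced by the authors as single-end reads from a poly(A) library kit. Per the submitters' processing notes, the tools were STAR, Subread and featureCounts on hg19, and the study's methods name the GENCODE gene set. The deposited values are raw read counts per gene without normalization, and the strand setting and the handling of reads that match several genes are not given in the sources used here. Samples were grouped by their titles. No per-sample column was left unassigned.

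Symbols, exons and positions came from a GENCODE annotation mapped to GRCh37 (55538 of 57820 genes matched), and promoter sequences from RefSeq (GRCh38.p14). The edgeR quasi-likelihood test (version 4.0.16, R 4.3.3) ran over all genes that passed filterByExpr (min.count 10, min.total.count 15) with TMM normalization and Benjamini-Hochberg adjustment. Calls needed more than a 1.3-fold change and an adjusted p-value below 0.05. SEs were derived from each fold change and its F statistic. edgeR shares variance estimates across genes, so that these SEs and p-values do not measure the spread of a gene's own 4 pairs alone. With the block the SE was 0.15 for CCN2, whose log2 ratios within replicate numbers ran from -0.94 to 0.86. Permutation tests on log2(CPM + 1) were exact and two-sided and used scipy 1.17.1 in Python 3.11.15. The code was tested on simulated data. There the edgeR fit without the block recovered 100% of 4-fold and 57% of 2-fold changes. A missing call therefore does not show that a gene is unchanged.

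The replicate numbers in the titles are shared by the groups. Same-numbered SP and NSP libraries deviated together from their group means (r 0.205 to 0.383 in 4 of 4 pairs, against -0.279 to 0.126 for other pairs), so blocked values stand beside results they change. No 2 libraries of a group agreed within counting noise (chi-square per degree of freedom 5.63 to 13.5).

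Alternatives were other scalings and filters, DESeq2 1.42.0, limma 3.58.1 voom, the replicate block, leaving out libraries or mitochondrially encoded genes, and the longest transcript as length. The genes of the set and the lists were chosen with earlier results of these data known. Named genes are the set itself, genes across its exons on the other strand, per list the called genes and the 2 with the smallest p-values, and the 3 most alike in pattern to CCN1 and WWTR1. Genes called with the block alone were added after their values were seen. PECAM1 was not matched, and protein sequences were not analysed here. Depth limits genes with few counts most.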

Additional observations from a re-analysis of the deposited data

Results flagged for a closer look

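In 4 of the 56 groups of 4 libraries examined for the named genes, a single library stood apart from the rest. About 1 in 20 such groups, or 2.8 here, would do so by chance. For ENSG00000254422, the lncRNA across YAP1, NSP replicate 3 was at 300 CPM and the others at 231 to 241, a gap of 0.854 of the group's range. For CCN3, NSP replicate 3 was at 42.7 CPM and the others at 17.6 to 20.1 (0.901). For ATF3, NSP replicate 3 was at 7.65 CPM and the others at 3.72 to 4.15 (0.892). For KLF6, NSP replicate 1 was at 32.4 CPM and the others at 24.2 to 25.6 (0.836). Among the 9 tested genes of the set no library stood apart in this way. TEAD2, with its single count, was not examined.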

How the results depend on the processing

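No setting without the replicate block called any of the 10 genes, including other scalings, other filters, DESeq2, limma voom and any 1 library left out. With the block, 2 were called higher and 1 lower by edgeR, and 2 and 1 by limma voom with the block, a fit added after seeing the data along with DESeq2 with the block (0 and 0) and the blocked fits without each replicate number (0 to 1 higher, 0 to 1 lower). Over all genes, 548 were higher and 652 lower with the block, 610 and 657 with voom and the block, 340 lower with DESeq2 and the block, 343, 358, 595 and 369 higher and 469, 426, 628 and 484 lower with the block and without replicate 1, 2, 3 or 4, 303 and 381 without a filter on low counts, and 69 to 164 higher and 89 to 181 lower with 1 library left out. Of the pathway lists, 4 genes were higher and 6 lower with the block, 5 and 7 with voom and the block, 2 and 2 with DESeq2 and the block, 3 to 5 and 2 to 4 with the block and without 1 replicate number, 3 and 2 without a filter, 0 higher with at least 10 counts in every library (NUAK2 was then not tested), and 1 to 2 higher and 0 to 2 lower with 1 library left out.

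Fold changes near 0 changed sign. With 1 library left out, YAP1 ranged from -0.11 to 0.23, WWTR1 from -0.084 to 0.21, TEAD4 from -0.10 to 0.055, CCN3 from -0.055 to 0.77, CCDC175 from -0.033 to 0.092, PROSER2 from -0.37 to 0.081 and SAMD10 from -0.031 to 0.26. With the block and without 1 replicate number, YAP1 ranged from -0.17 to 0.16 (-0.067 without replicate 3), WWTR1 from -0.10 to 0.11, TEAD4 from -0.07 to 0.048, CCDC175 from -0.023 to 0.07 and PROSER2 from -0.39 to 0.017. YAP1 was at -0.028 with DESeq2 and the block, TEAD4 at 0.0029 with upper-quartile scaling, and with limma voom WWTR1 was at -0.0036 and CCN2 at -0.12. The cause was not tested. Over named genes and alternatives, 525 fold changes kept direction and side of the threshold, 26 changed sign, 32 gained a call and 13 lost one. TEAD2, LATS1, STK3 and NF2 had too few counts to be tested, and the reason was not tested.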
